A study of Homo sapiens with 6 samples.

Results

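Cytosolic ribosomal proteins are the proteins that, with ribosomal RNA, make up the large and the small subunit of the ribosome outside mitochondria. Their genes were taken by symbol from a table of TPM (a level corrected for transcript length and scaled to the same total in each library) with 60589 genes. The rule took RPL or RPS followed by digits and at most a final A or X, and RPLP0, RPLP1, RPLP2, RPSA and FAU. It gave 78 genes, 46 of the large and 32 of the small subunit, and all 78 were tested, since the lowest value of a member in any library was 97.35 TPM. Genes were tested where their mean over all libraries was at least 1 TPM, which left 14790.

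The libraries came from SNU449, an established cell line from a human hepatocellular carcinoma, collected at day 3. The cells had received an siRNA against MAD2L1, a spindle checkpoint protein (siMAD2L1, 3 libraries), or a control siRNA (siControl, 3 libraries). The treatment field names MAD2L2 and MAD2L3 for siMAD2L1 replicates 2 and 3, while all titles name MAD2L1, and groups were taken from the titles. The sources used here do not say whether replicates are separate cultures or use different siRNAs, so p-values measure only the spread between these libraries. MAD2L1 measured 4.47, 0.795 and 2.40 TPM in siMAD2L1 replicates 1, 2 and 3, against 14.5, 13.7 and 13.9 TPM in siControl, and the groups did not overlap (limma adjusted p = 0.0105). Leaving out siControl replicate 1 (fold change -2.20 in log2) or siControl replicate 3 (-2.23) ended the call, with an adjusted p of up to 0.0531 in limma. MAD2L2 measured 123, 154 and 138 TPM in siMAD2L1, against 150.1, 146 and 138 TPM in siControl, and the groups overlapped. The depth of the libraries is unknown. Of 8 hepatocyte markers, APOB and TTR were listed at 0 in all 6 libraries and ALB stayed at or under 0.451 TPM, so hepatocyte identity was not visible in these genes; the list summed to 5.99 to 10.6 TPM in siMAD2L1 and 10.9 to 14.8 TPM in siControl, and TF fell. The 3 mesenchymal markers, mostly VIM, summed to 10618 to 11253 TPM in siMAD2L1 and 9217 to 10073 TPM in siControl, with none called. The 5 epithelial markers summed to 279 to 309 TPM in siMAD2L1 and 411 to 426 TPM in siControl, and KRT8 and KRT18 fell. The 3 fibroblast markers summed to 318 to 350.2 TPM in siMAD2L1 and 487 to 564 TPM in siControl, and COL1A2 fell. Of 4 leukocyte markers CD68 rose, at 125, 143 and 144 TPM in siMAD2L1, against 64.4, 69.8 and 63.1 TPM in siControl. CD79A lay under the filter, at 0.897, 0.668 and 1.912 TPM in siMAD2L1, against 0.632, 0.362 and 0.24 TPM in siControl. PTPRC and CD3E lay at or near 0, as did the 3 endothelial markers. The part of these shifts in the ribosomal protein values was not tested, and in bulk libraries fewer cells of a type and less RNA per cell cannot be told apart.

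As background, the small subunit reads the mRNA and the large subunit joins amino acids, and cells make nearly all ribosomal proteins in equal number for assembly in the nucleolus. Most vertebrate ribosomal protein mRNAs begin with a C followed by a run of pyrimidines, the 5′ terminal oligopyrimidine (TOP) motif. Through LARP1 and the kinase complex mTORC1, that motif ties their translation and stability to nutrient supply. Proliferating tumour cells hold large amounts of these mRNAs.

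Start sites were looked up in RefSeq (GRCh38.p14), which matched 63 of the 78 members with 78 annotated starts. A C followed by at least 4 pyrimidines, read on the gene's own strand from the first transcribed base, stood at 47 of these 78 starts (60.3%), in 47 genes. Over all 35116 starts in the same table it stood at 4.07%. The letters CCGGAAG, or their reverse complement CTTCCGG, a form of the site bound by ETS-family factors, occurred in the window from 250 bases before to 50 bases from the start at 33.3% of the members' starts and 10.3% of all starts. These letters overlapped the pyrimidine stretch at 2 of the members' starts. The windows below show 10 bases before the start and the first 20 transcribed bases for RPS26, the member that fell, and for 5 of the members with the largest positive fold changes. Capitals mark the first 5 transcribed bases. RefSeq lists 3 starts for RPL10, and the window with the pyrimidine stretch is shown. The windows lie at chr12:56041908-56041937 (+, RPS26), chrX:154398367-154398396 (+, RPL10), chr19:55385922-55385951 (+, RPL28), chr9:127451387-127451416 (-, RPL12), chr2:216498834-216498863 (+, RPL37A) and chr19:8321486-8321515 (+, RPS28).
RPS26: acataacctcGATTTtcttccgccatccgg
RPL10: ggaggagcgcCTCTTtcccttcggtgtggt
RPL28: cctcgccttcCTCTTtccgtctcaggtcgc
RPL12: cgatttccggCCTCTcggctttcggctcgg
RPL37A: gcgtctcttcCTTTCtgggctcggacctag
RPS28: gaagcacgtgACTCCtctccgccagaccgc
RPL10, RPL28, RPL12 and RPL37A show the pyrimidine stretch at the annotated start, while RPS26 starts with G and RPS28 with A at theirs. The 47 members with such a start had a median log2 fold change of 0.14 (0.00257 to 0.31), and the 16 matched members without one had a median of 0.09 (-0.59 to 0.36), values given as a description.

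Across the 78 members, RPS26 alone was called in limma, and it was lower in siMAD2L1. Of the others, 75 had a positive and 2 a negative fold change, a count that falls to 40 of 78 positive with quantile normalization. Without that normalization, 5933 of all 14790 tested genes were positive, and 354 of the other 579 with a mean of at least 200 TPM. No other member was past an adjusted p of 0.05 in limma. So 0 members were called higher, against a background of 3.55% of all tested genes called higher, and 1 of 78 was called lower, against 6.23%. These shares are 525 and 921 genes. The split between higher and lower calls was 687 and 701 with quantile normalization, 648 and 715 with upper-quartile scaling, 396 and 1524 without mitochondrial genes, 782 and 649 after removal of a trend on transcript length, and 1224 and 1134 after removal of one on coding GC content. At an unadjusted p under 0.05 in limma, 12 members were higher and 1 lower, beside 8.9% and 17.4% of all tested genes, and beside 28% higher among the other 579 tested genes with a mean of at least 200 TPM. The median log2 fold change of the members was 0.12 (0.12 for the large and 0.13 for the small subunit), beside -0.08 over all tested genes. The groups did not overlap in 20 members that were higher in siMAD2L1, beside 11.3% of all tested genes, and in 1 that was lower, beside 21.5%. Among the other genes with a mean of at least 200 TPM, 30.2% were higher without overlap, and the members' 20 of 78 did not stand above that share. The members' median ran from 1461 TPM (siControl replicate 2) to 1816 TPM (siMAD2L1 replicate 2), and the set was not matched to it. In that set 26.3% were called in either direction. The standard error of the log2 fold change had a median of 0.08 in the members and 0.18 over all tested genes. The 95% intervals of 68 members lay wholly between -0.5 and 0.5, and the outermost bounds of the members other than RPS26 were -0.27 (RPS29) and 0.75 (RPS28).

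**Figure D1:**
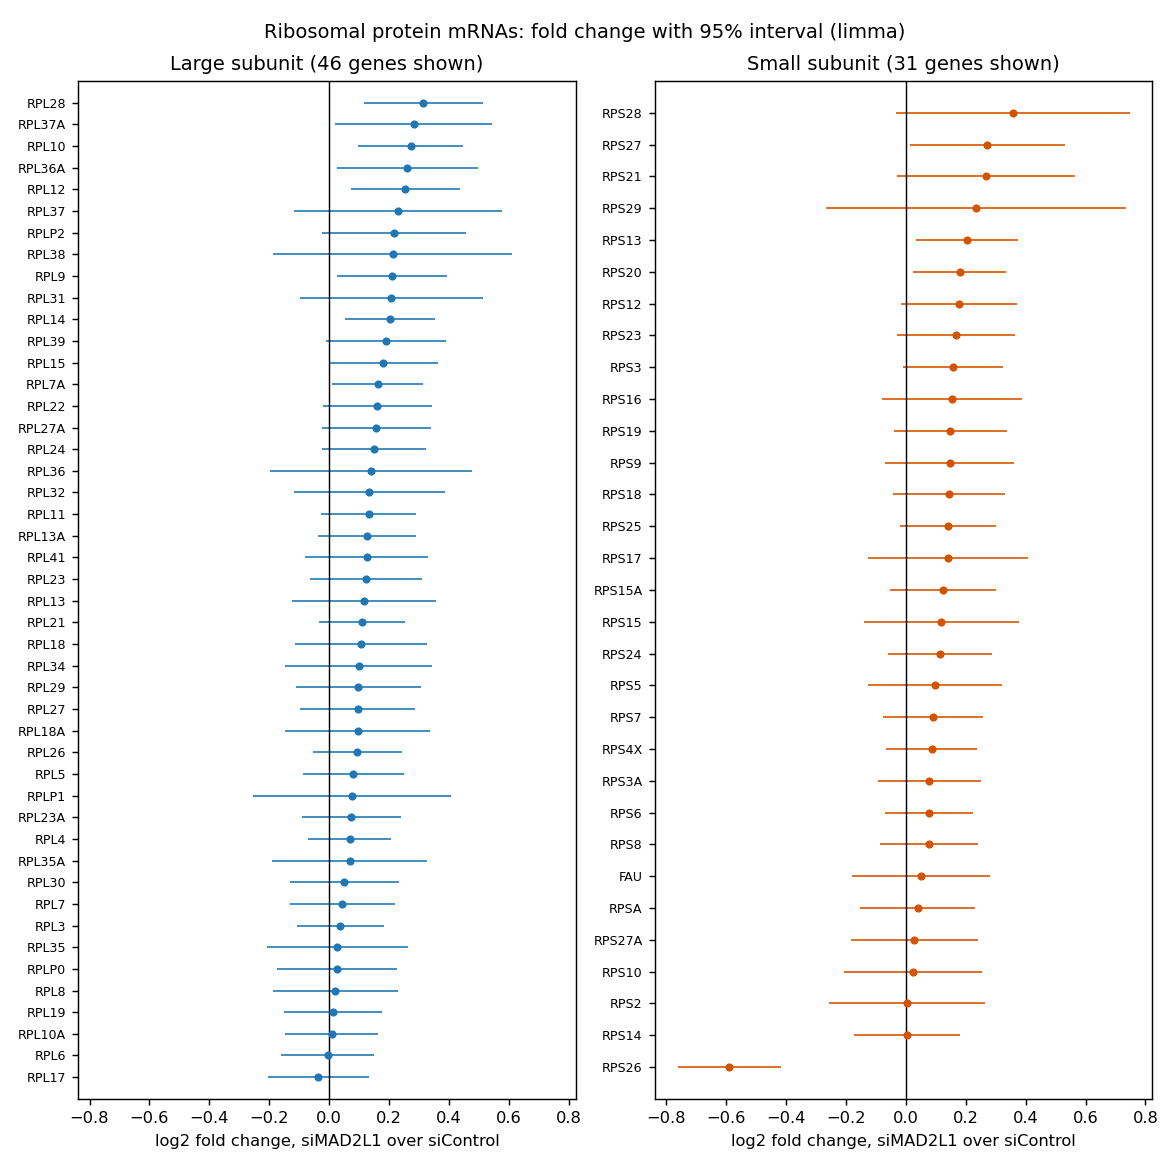
Log2 fold change of siMAD2L1 over siControl for 77 of the 78 ribosomal protein genes on log2(TPM + 1), large subunit on the left and small subunit on the right, with bars for the 95% interval from limma (n = 3 libraries each). RPS26 lies at -0.59, apart from the others, which lie between -0.04 and 0.36.

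The size of the positive shift depended on what TPM was scaled to. Ribosomal protein mRNAs took 14.2%, 15.9% and 15.0% of the TPM in siMAD2L1 replicates 1, 2 and 3, against 14.0%, 12.9% and 14.3% in siControl. The means were 15.1% ± 0.857 in siMAD2L1 and 13.7% ± 0.715 in siControl (SD, n = 3 each), and the groups overlapped. Over the same libraries, transcripts encoded in the mitochondrial genome took 9.84% ± 0.897 of the TPM in siMAD2L1 and 15.3% ± 0.06 in siControl. With the mitochondrial genes left out of the total, the members' share was 16.7% ± 0.93 in siMAD2L1 and 16.2% ± 0.859 in siControl. The median log2 fold change of the members was then 0.03, with 52 of 78 positive, beside a median of -0.17 over all tested genes. With quantile normalization it was 0.00375, with 40 of 78 positive, beside -0.00294 over all tested genes. That normalization gives all libraries the same set of values, so it can remove part of a joint shift of many high genes. How far it did so here was not tested. The count of positive folds among members thus moved with the scaling, while RPS26 stayed the only member called in these fits.

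The large and the small subunit moved together. Large-subunit mRNAs summed to 83552, 93569 and 87993 TPM in siMAD2L1, against 81869.8, 76401 and 83664 TPM in siControl. Small-subunit mRNAs summed to 58722, 65852 and 61761 TPM in siMAD2L1, against 57815, 52917.5 and 59363 TPM in siControl. In both subunits siMAD2L1 replicate 2 was the highest library and siControl replicate 2 the lowest, and siMAD2L1 replicate 1 lay among the siControl libraries. The ratio of the large to the small sum was 1.423 ± 0.002 in siMAD2L1 and 1.423 ± 0.0185 in siControl (SD, n = 3 each). Of the large-subunit genes, 44 of 46 had a positive fold change and 13 were higher without overlap. Of the small-subunit genes, 31 of 32 had a positive fold change, with 7 higher and 1 lower without overlap. Beside these, 5933 of all 14790 tested genes had a positive fold change, with 11.3% higher and 21.5% lower without overlap. Of the other 579 genes with a mean of at least 200 TPM, 354 had a positive fold change and 30.2% were higher without overlap.

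**Figure D2:**
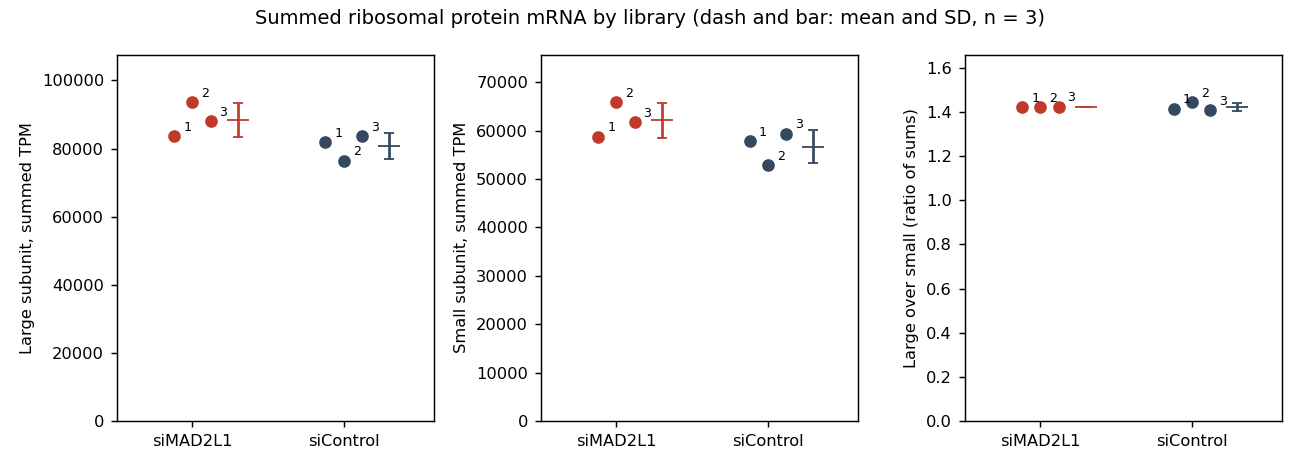
Summed TPM of the 46 large-subunit genes, of the 32 small-subunit genes, and the ratio of these sums, with a point for each library numbered by replicate and a dash and bar for mean and SD (n = 3). The siMAD2L1 replicate 2 point is the highest and the siControl replicate 2 point the lowest in both sums, and the ratio lies between 1.41 and 1.44 in all libraries.

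RPS26 (ENSG00000197728, plus strand of chromosome 12, 56041351 to 56044697, GRCh38) is the small-subunit protein that lies by the exit of the mRNA channel, and loss of a copy of the gene causes Diamond-Blackfan anaemia in humans. It measured 97.35, 107 and 101 TPM in siMAD2L1 replicates 1, 2 and 3, against 161, 149 and 152 TPM in siControl replicates 1, 2 and 3. All siMAD2L1 libraries lay below all siControl libraries, with means of 102 ± 4.93 and 154 ± 6.01 TPM (SD, n = 3 each). Its level in siMAD2L1 was 66.3% of that in siControl, a log2 fold change of -0.59 (SE 0.0744, 95% interval -0.76 to -0.42, limma adjusted p = 0.00457). It passed in all 24 alternative fits, of which siMAD2L1 replicate 1 alone has a single library in its arm and takes its spread from siControl only, at log2 fold changes between -0.68 and -0.50 and adjusted p up to 0.0354. Its level per length was also the lowest of the 78 members in every library, at 5.97%, 5.90% and 5.89% of the members' median in siMAD2L1 and 9.94%, 10.2% and 9.42% in siControl.

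Ribosomal protein genes have many processed pseudogenes, near-copies that can take reads from the gene, so a level of RPS26 in TPM is uncertain in size. The table lists 35 RPS26 pseudogenes by symbol. They summed to 8.51, 29.6 and 33.9 TPM in siMAD2L1, against 16.8, 0.959 and 34.5 TPM in siControl, and their groups overlapped. RPS26 together with these pseudogenes measured 106, 137 and 135 TPM in siMAD2L1, against 177, 150.2 and 186 TPM in siControl. With the pseudogenes added, the siMAD2L1 libraries still lay below all siControl libraries.

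Of the members with the largest positive fold changes, RPL28 and RPL10 came nearest to the threshold. RPL28, a large-subunit protein, measured 1859.8, 2199 and 2242 TPM in siMAD2L1, against 1693, 1609 and 1748 TPM in siControl. All siMAD2L1 libraries lay above all siControl libraries (log2 fold change 0.31, SE 0.0864, limma adjusted p = 0.0592). RPL10, which is added late to the large subunit and completes its active centre, had the highest level of all members, with 6074, 7102 and 6499.6 TPM in siMAD2L1, against 5541, 5464 and 5253 TPM in siControl. It too showed no overlap (0.27, SE 0.0757, limma adjusted p = 0.0613). RPL12, at the base of the stalk that receives elongation factors, measured 2348, 2788 and 2571 TPM in siMAD2L1, against 2211, 2076 and 2159 TPM in siControl (0.25, limma adjusted p = 0.0809). RPL14 measured 1424, 1399.8 and 1383 TPM in siMAD2L1, against 1218, 1155 and 1282 TPM in siControl (0.20, limma adjusted p = 0.0888). In each of these 4 genes the groups did not overlap, and none passed the threshold.

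The calls depended on siMAD2L1 replicate 1. Without it, 5 members were called: RPS26 lower, and RPL10, RPL12, RPL28 and RPLP2 higher, beside 11.5% of all tested genes called lower and 4.78% called higher in that fit. The 4 of 78 called higher are thus near the background share. Without siControl replicate 3, RPS28 was called higher beside RPS26, where 1.12% of all tested genes were called higher and 1.57% lower. With library weights in limma, 12 members were called higher and RPS26 lower, beside 10.2% and 22.6% of all tested genes. RPLP2, an acidic protein of the stalk, measured 1994, 2631 and 2489 TPM in siMAD2L1, against 2017, 2069 and 1988 TPM in siControl, so replicate 1 lay among the siControl libraries. Its partners in the stalk, RPLP0 (0.03, limma adjusted p = 0.88) and RPLP1 (0.08, limma adjusted p = 0.783), had smaller fold changes than RPLP2 (0.22, limma adjusted p = 0.23), and the difference between them was not tested.

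**Figure D3:**
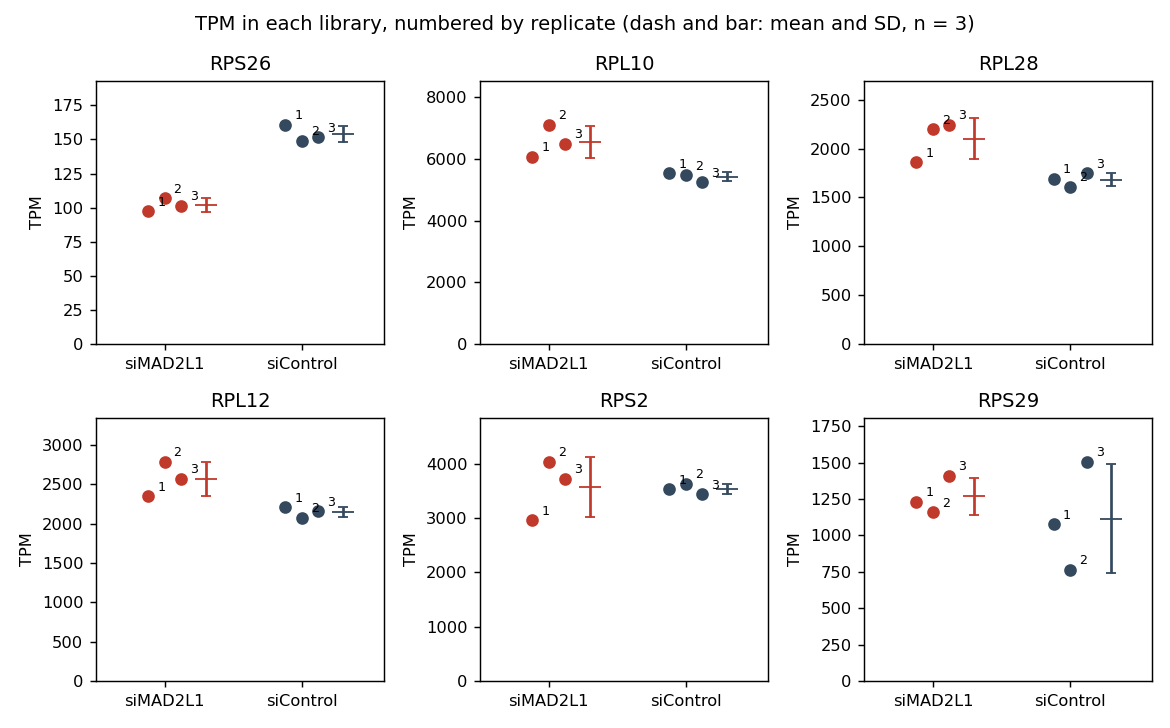
TPM of 6 ribosomal protein genes in each library, numbered by replicate, with siMAD2L1 left of siControl and a dash and bar for mean and SD (n = 3). RPS26 is lower and RPL10, RPL28 and RPL12 are higher in all siMAD2L1 libraries, while RPS2 spans 2957 to 4043 TPM among siMAD2L1 libraries and RPS29 spans 765 to 1507 TPM among siControl libraries.

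In 4 other members with large positive fold changes and short coding sequences, the siControl libraries differed widely. RPS28 had the largest positive fold change of all members (0.36, SE 0.169, limma adjusted p = 0.225) and measured 752, 777 and 829 TPM in siMAD2L1, against 558, 499.9 and 827 TPM in siControl. RPL37A measured 3501, 3304 and 3519.7 TPM in siMAD2L1, against 2938, 2369.7 and 3253 TPM in siControl (0.28, limma adjusted p = 0.161). RPS27 measured 4582, 4266 and 4552 TPM in siMAD2L1, against 3786, 3125 and 4277 TPM in siControl (0.27, limma adjusted p = 0.172). RPS21 measured 2673, 2759 and 2802 TPM in siMAD2L1, against 2487, 1827 and 2613 TPM in siControl (0.27, limma adjusted p = 0.234). In these 4 genes siControl replicate 2 was the lowest and siControl replicate 3 the highest siControl library. RPL36A, of the large subunit, had closer siControl libraries and measured 519, 605 and 480.1 TPM in siMAD2L1, against 435, 415 and 485 TPM in siControl (0.26, limma adjusted p = 0.15).

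At the other end, 2 members besides RPS26 had negative fold changes. RPL17, at the mouth of the tunnel through which the new protein leaves, averaged 1277 ± 73.6 TPM in siMAD2L1 and 1309 ± 72.1 TPM in siControl (SD, n = 3 each; -0.04, limma adjusted p = 0.801). RPL6 averaged 1261 ± 77.8 TPM in siMAD2L1 and 1264.5 ± 15.7 TPM in siControl (SD, n = 3 each; -0.00526, limma adjusted p = 0.971). The 95% intervals of these differences were -0.21 to 0.13 for RPL17 and -0.16 to 0.15 for RPL6. Both signs turned with upper-quartile scaling and with a length or GC trend removed, and RPL6 also turned with TPM rescaled without the members. RPS14 and RPS2 followed at 0.00257 and 0.00302.

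Members known for roles besides their place in the ribosome did not pass either. RPL5 and RPL11, which with 5S rRNA bind and restrain MDM2 when ribosome assembly fails, had log2 fold changes of 0.08 (95% interval -0.09 to 0.25, limma adjusted p = 0.528) and 0.13 (-0.03 to 0.29, limma adjusted p = 0.266), and both were negative with quantile normalization, RPL5 also without mitochondrial genes. RPS6, the substrate of S6 kinase, averaged 1926 ± 77.9 TPM in siMAD2L1 and 1826 ± 57.1 TPM in siControl (SD, n = 3 each; 0.08, limma adjusted p = 0.489). RPS19, the gene most often mutated in Diamond-Blackfan anaemia, averaged 3383 ± 291 TPM in siMAD2L1 and 3046 ± 151 TPM in siControl (SD, n = 3 each; 0.15, limma adjusted p = 0.291). RPS3, which lies at the entry of the mRNA channel and also takes part in DNA repair, did not overlap between groups, with 1523 ± 46.4 TPM in siMAD2L1 and 1367 ± 94.8 TPM in siControl (SD, n = 3 each; 0.16, limma adjusted p = 0.211). RPL22, which binds RNA and is often mutated in tumours, averaged 613 ± 22.7 TPM in siMAD2L1 and 549 ± 44.5 TPM in siControl (SD, n = 3 each; 0.16, limma adjusted p = 0.237). Its pseudogene RPL22P1 measured 190, 25.4 and 124 TPM in siMAD2L1, against 102, 30.4 and 207 TPM in siControl. The level of RPL22 is therefore uncertain in size. RPS27A, made as a fusion with ubiquitin (0.03, limma adjusted p = 0.88), and FAU, made as a fusion with a ubiquitin-like protein (0.05, limma adjusted p = 0.788), had small fold changes with intervals from -0.18 to 0.24 and from -0.18 to 0.28. RPSA, related to the laminin receptor (0.04, limma adjusted p = 0.813), RPS14 (0.00257, limma adjusted p = 0.988), RPL3, which lies by the active centre of the large subunit (0.04, limma adjusted p = 0.753), and RPL41, the shortest member (0.13, limma adjusted p = 0.414), did not pass.

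Levels differed far more between members than between groups. Per length, RPL10 was highest with a mean of 5989 TPM over all libraries, followed by RPL13 (4414 TPM), RPS27 (4098 TPM) and RPL41 (3995.5 TPM). The lowest after RPS26 (128 TPM) were RPL9 (316 TPM) and RPL34 (469 TPM). RPL13 measured 3922, 5265 and 4638 TPM in siMAD2L1, against 4195, 4211 and 4251 TPM in siControl, and RPS27 overlapped it in range, so the order of these neighbours is not firm.

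Libraries of the same group differed among themselves in a patterned way. siMAD2L1 replicate 2 was the highest of the 6 libraries for 55 of the 78 members, and siControl replicate 2 was the lowest for 55. In 63 members siMAD2L1 replicate 2 lay above all siControl libraries, in 46 replicate 3 did, and in 33 replicate 1 did. In 18 members siMAD2L1 replicate 1 lay below all siControl libraries, and in 17 of these replicate 2 lay above them all. RPS2, for example, measured 2957, 4043 and 3728 TPM in siMAD2L1, against 3538, 3638 and 3441 TPM in siControl. Those 17 members had a median GC content of 57.2% in their coding sequence, beside 51.8% over all 78.

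Over the 78 members, the difference between siMAD2L1 replicates 2 and 1 rose with coding GC content (Pearson r = 0.704, Spearman rho = 0.726, a description across genes that share the same libraries). Over the 11975 other tested genes with a coding sequence in the annotation, rho was 0.599. The 19 members with a coding GC content of at least 55% had median log2 values over the siControl mean of -0.08, 0.28 and 0.13 in siMAD2L1 replicates 1, 2 and 3. The 26 members under 48% had 0.13, 0.14 and 0.06. The median fold change between the groups was 0.12 and 0.11 in these sets, and over all members rho between fold change and GC content was -0.03. The part of this difference between libraries in the calls was not tested beyond the fit with a GC trend removed from each library, chosen after the data were seen, in which RPS26 was lower and RPL28 higher, beside 9.41% and 10.2% of its genes.

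Among siControl libraries the members differed by coding length instead. The difference between siControl replicates 3 and 2 fell with coding length over the 78 members (rho = -0.631), and over the 11975 other genes rho was -0.24. The 9 members with a coding length of 300 nt or less had a median log2 value over the siControl mean of -0.29 in siControl replicate 2 and 0.21 in replicate 3. The 292 other tested genes of that length had -0.07 and 0.05. RPS29, with 168 nt of coding sequence, measured 1233, 1159 and 1410.1 TPM in siMAD2L1, against 1076, 765 and 1507 TPM in siControl, and had the largest standard error of all members (0.217). In siMAD2L1 replicates 1, 2 and 3 the 9 short members had median log2 values of 0.2285, 0.2045 and 0.3147 over the siControl mean. Thus siControl replicate 3, at 0.2095, lay within the siMAD2L1 range. The 9 short members had a median fold change of 0.23, the 69 longer ones of 0.11, and the 292 other short genes of -0.08. Over the 78 members rho between fold change and coding length was -0.456, and over the 11975 other genes -0.0236. Pearson r with log2 coding length was -0.294 and -0.0225.

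**Figure D4:**
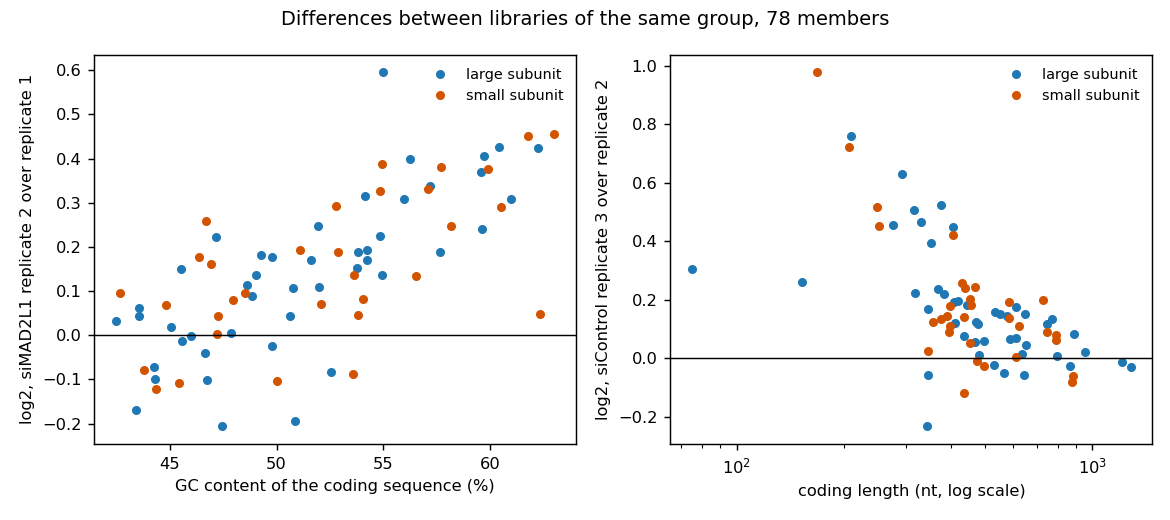
Differences between libraries of the same group for the 78 members, with siMAD2L1 replicate 2 over replicate 1 against the GC content of the coding sequence on the left, and siControl replicate 3 over replicate 2 against coding length on a log axis on the right. The left differences rise with GC content (rho = 0.726) and the right ones fall with length (rho = -0.631).

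Genes that work with these proteins were taken from fixed lists. Beside the list counts below, 3.55% of all tested genes were called higher and 6.23% lower in limma. At an unadjusted p under 0.05 these shares were 8.9% and 17.4%, and 5933 of all 14790 tested genes had a positive fold change. Of 9 paralogs and fusions outside the rule, 7 were tested, and none was called in limma, with 0 higher and 1 lower at an unadjusted p under 0.05. RPL22L1, the paralog of RPL22, measured 21.6, 25.1 and 32.0 TPM in siMAD2L1, against 39.3, 31.0 and 36.5 TPM in siControl (-0.44, limma adjusted p = 0.124), while RPS27L had 0.15 (limma adjusted p = 0.5) and RPL36AL 0.16 (limma adjusted p = 0.256). RPL39L, RPL7L1 and RPL26L1 had -0.23, -0.05 and -0.04. RPL3L and RPL10L lay under the filter.

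Of 24 translation factors and other mRNAs known to carry the TOP motif, 1 fell and none rose in limma (4 higher and 2 lower at an unadjusted p under 0.05), with a median log2 fold change of 0.09 and 18 positive. The one that fell was SNHG1, a host of small nucleolar RNAs, with 27.1, 27.8 and 24.3 TPM in siMAD2L1, against 41.3, 39.7 and 53.0 TPM in siControl (-0.73, SE 0.129, limma adjusted p = 0.0146). It was called in 19 of 23 alternatives, and lost its call in the fit of siMAD2L1 replicate 1 alone (-0.69), which has the spread of siControl only, without siMAD2L1 replicate 3 (-0.67), without siControl replicate 1 (-0.78) and without siControl replicate 3 (-0.60). EEF1A1, the elongation factor that brings tRNA to the ribosome, averaged 10084.5 TPM in siMAD2L1 and 8687 TPM in siControl (0.22, limma adjusted p = 0.0818), and EEF2, which moves the ribosome along, averaged 1443.5 TPM in siMAD2L1 and 1227 TPM in siControl (0.23, limma adjusted p = 0.0731; 0.27 and called without siMAD2L1 replicate 1). RACK1, a protein of the small subunit outside the symbol rule, had 0.07 (limma adjusted p = 0.625).

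Of 16 genes of the mTORC1, LARP1 and S6 kinase arm, 1 rose and none fell in limma (2 higher and 1 lower at an unadjusted p under 0.05), at a median of -0.02. RPTOR, the subunit of mTORC1 that recruits its substrates, measured 83.1, 91.9 and 88.8 TPM in siMAD2L1, against 54.8, 60.2 and 53.0 TPM in siControl, with no overlap (0.64, SE 0.0861, limma adjusted p = 0.0057). It passed in all 24 alternative fits. EIF4EBP1, a translation repressor that mTORC1 inactivates, did not pass (0.31, limma adjusted p = 0.0785; 0.41 and called without siMAD2L1 replicate 1), nor did MTOR (-0.31, limma adjusted p = 0.138; -0.39 and called without that library) or LARP1, which binds the TOP motif (-0.17, limma adjusted p = 0.319).

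None of 16 ribosomal protein chaperones and importers was called in limma (median -0.11, with 1 higher and 1 lower at an unadjusted p under 0.05). The highest by level were KPNB1, an importin (-0.10, limma adjusted p = 0.63), and AAMP, whose yeast counterpart escorts the RPL10 protein (0.11, limma adjusted p = 0.389), while TSR2, which delivers the RPS26 protein in yeast, had -0.16 (limma adjusted p = 0.345). None of 17 genes of ribosome recycling, storage and quality control was called (median 0.10, with 2 higher and 0 lower at an unadjusted p under 0.05), EIF6, which keeps the subunits apart, at -0.13 (limma adjusted p = 0.475) and CCDC124, which sits on idle ribosomes, at 0.13 (limma adjusted p = 0.457). Of 10 genes of the 5S checkpoint, which include RPL5 and RPL11, 1 rose and none fell in limma (1 higher and 2 lower at an unadjusted p under 0.05); the one that rose was CDKN1A, the cell cycle inhibitor p21 (1.31, limma adjusted p = 0.000688). MDM2, an E3 ubiquitin ligase, did not pass, and measured 26.4, 8.79 and 10.7 TPM in siMAD2L1, against 8.97, 8.55 and 11.2 TPM in siControl. Only siMAD2L1 replicate 1 lay above the siControl libraries.

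The pseudogenes of ribosomal protein genes, 1294 by symbol, summed to 2239, 1826 and 2121 TPM in siMAD2L1, against 1734, 1478 and 2117 TPM in siControl, and the groups overlapped. RPL23AP42 alone measured 1568, 1314 and 1455 TPM in siMAD2L1, against 1187, 956 and 1358 TPM in siControl. RPL23A itself had means of 1101 TPM in siMAD2L1 and 1045 TPM in siControl. Whether the counting split reads between the gene and this near-copy was not tested, so the level of RPL23A is uncertain. Small nucleolar RNAs guide changes of ribosomal RNA nucleotides. Within the spans of the members, on the same strand, lie 59 annotated genes of such RNAs in 28 host genes. Of these, 53 were listed at 0 in all libraries, and 3 passed the filter. SNORA65, which lies in RPL12, was listed at 4.35, 8.71 and 6.76 TPM in siMAD2L1 and at 0 in all siControl libraries. SNORA21B, in RPL23, was listed at 0 in all siMAD2L1 libraries and at 4.61, 0 and 2.81 TPM in siControl. Both passed the filter only through the group where they are above 0, so no test is given for them.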

How the data were processed

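The deposited values are TPM, 1 column per library, made by the authors; all columns have the same total, so the files do not show depth, and intervals of counting error could not be computed. fastp, HISAT2, DESeq2 1.16.1 and the build hg38 are named in the submitters' processing notes. No source used here gives the counting tool, its annotation and strand setting, or how TPM was derived. 20 of the 78 members carry an identifier from transcript assembly joined to the Ensembl one.

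Values were transformed to log2(TPM + 1), and genes with a mean of at least 1 TPM were kept. limma 3.58.1 (R 4.3.3) with an intensity trend was fitted to all 14790 genes, siMAD2L1 against siControl, without covariates. Genes with a Benjamini-Hochberg adjusted p under 0.05 were called. The fit was also run on simulated data with independent noise of equal spread per gene in all libraries. Those data held none of the library differences linked to GC content or length, so they cannot show how the fit behaves under them. Fold changes are on the log2(TPM + 1) scale. The members, gene lists and tests were chosen with earlier results of these data known, so list counts are descriptions, and no set test or p over a list was made. Members named are the highest and lowest by TPM, the largest fold changes, the called ones and those with known separate roles; from other lists, called genes or the highest 2, and others named were chosen after their values were seen. A few genes the rule would name are not reported here, though they stay in the counts and medians. Positions, coding lengths (without stop codon) and coding GC content come from GENCODE 29 (GRCh38), which held 57974 of 60589 genes and all 78 members; start sequences come from RefSeq (GRCh38.p14). Figures used Python 3.11.15 and matplotlib 3.10.9. Alternatives were pseudocounts of 0.1 and 0.5, no filter or 5 TPM, 6 scalings, a transcript-length trend removed, 3 variance models, a replicate block, libraries left out, siMAD2L1 replicate 1 alone, and 2 added after the data were seen.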

Additional observations from a re-analysis of the deposited data

How the results depend on the processing

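RPS26 was lower and called in all 24 alternatives, among them siMAD2L1 replicate 1 alone, whose spread comes from siControl only. The count of called members was 2 with a filter at 5 TPM, with a transcript-length trend removed and with a coding GC trend removed. It was 13 with library weights, 5 without siMAD2L1 replicate 1 and siControl replicate 2 together, and 1 to 5 with 1 library left out. Over all tested genes, 558 were called higher and 967 lower of 9907 with the 5 TPM filter, and 782 and 649 of 14790 with the length trend removed. These counts were 1224 and 1134 of 12053 with the GC trend removed, 1514 and 3346 of 14790 with library weights, and 627 and 1031 of 14683 without those 2 libraries. The members' median log2 fold change was 0.00375 with quantile normalization, 0.03396 without mitochondrial genes, 0.222 with the length trend removed and 0.1918 with the GC trend removed. Its excess over the median of all tested genes was lowest with quantile normalization (0.00669) and for siMAD2L1 replicate 1 alone (0.05192). The 2 medians stood farther apart in the main fit (0.1238 and -0.08236) and with upper-quartile scaling (0.174 and -0.03859). The same held without mitochondrial genes (0.03396 and -0.1655). The median of the large subunit less that of the small was -0.02682 without siMAD2L1 replicate 1 and siControl replicate 2. In the main fit these medians were 0.12 for the large and 0.1256 for the small subunit. The count of called genes, 1446, was 727 without a filter, 952 without a trend, 4860 with library weights and 2358 with the GC trend removed, and ranged from 356 to 2410.0 with 1 library left out. With a replicate block, where the numbers give no pairing in the labels and same-numbered libraries correlated at 0.019, 0.00898 and 0.0631 in their deviations, 868 genes were called, RPS26 the only member. Among the genes followed by name, the signs that turned belonged to genes not called in the fits given. RPL17 was at 0.01433 (upper-quartile scaling), 0.06184 (length trend), 0.01614 (GC trend), 0.01418 (siMAD2L1 replicate 1 alone) and between -0.06864 and 0.01289 with 1 library left out (0.00765 without siControl replicate 3). RPL6 was at 0.045, 0.09457, 0.04863 and 0.08713 in the same 4 fits, 0.01688 rescaled without the members, and -0.05146 to 0.03684 with 1 library left out (0.00493 without siControl replicate 2). RPL5 was at -0.07439 (quantile), -0.00853 (without mitochondrial genes) and -0.01292 (library weights), RPL11 at -0.00963 (quantile), RPS27L at -0.04177 (2 libraries left out), and MAD2L2 at 0.02427 (length trend), 0.00820 (GC trend), 0.01827 (2 libraries left out) and -0.1467 to 0.01205 with 1 library left out. The causes were not tested. Unknown depth means that the error of low genes could not be split into counting and other error.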
